A study of Homo sapiens with 6 samples.

Results

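The genes described here build the DNA replication machinery: the factors that license and fire origins, the proteins of the fork, the enzymes that supply its nucleotides and the histone chaperone that follows it. The list holds 55 genes, and its members are all probe sets that the platform annotation assigns to 1 of these genes alone, which gave 105 of the 54675 probe sets on the array. Of the 55 genes, 52 had a probe set that averaged log2 4 or more across all 6 arrays and were tested among 11131 genes, each through its brightest probe set. ORC1, CLSPN and LIG1 stayed under that level and are described by their values only.

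The cells were PC3, an established line from a human prostate cancer. They were transfected with an siRNA pool against NRP-2 (NRP2, a co-receptor for VEGF-C and class 3 semaphorins), an siRNA pool against VEGF-C (VEGFC, a lymphatic growth factor) or scrambled siRNA, and total RNA was taken after 72 h for HG-U133 Plus 2.0 arrays. All cells grew in medium with 10% fetal bovine serum, penicillin and streptomycin. Each of the 3 groups had 2 arrays, numbered 1 and 2 in the titles, and the labels do not say whether they came from separate cultures or what the number stands for, so every p-value here reflects no more than how far these arrays lie apart, and that spread may be technical. Each target was hit with a single pool, bought from different suppliers, and the labels name none for the scrambled siRNA. With 1 pool per target, depletion of the target cannot be told apart from other effects of the siRNA sequences.

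Before S phase, the origin recognition complex, CDC6 and CDT1 load the MCM2 to MCM7 helicase on DNA, which licenses the origin, and geminin blocks a second loading. The kinases CDC7-DBF4 and cyclin E-CDK2 then turn the loaded helicase into an active one with CDC45, the GINS complex and MCM10, and polymerases, clamp and ligase follow behind it. Many of these genes are textbook targets of E2F transcription factors, so their transcripts are high around the G1 to S transition and low in cells outside the cycle. Their level in a culture is therefore commonly read as a measure of how many cells are cycling.

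Values are the deposited log2 values made with GCRMA, a change is a difference of group means with its standard error (SE) from limma, and an adjusted p is Benjamini-Hochberg over all 11131 genes. The array medians lay within 0.07 of each other. Both targets were lower with their own siRNA. VEGFC stood at 8.46 and 7.27 on the VEGF-C siRNA arrays, against 11.81 and 11.80 on the scrambled arrays (limma's adjusted p = 0.204). NRP2 stood at 3.41 and 2.81 on the NRP-2 siRNA arrays, against 4.77 and 4.92 on the scrambled arrays (adjusted p = 0.213). The scrambled values of NRP2 lay little above the log2 4 filter, so its fall is read near the floor. On the VEGF-C siRNA arrays NRP2 had 5.51 and 6.01, above both scrambled arrays (change 0.91, limma's adjusted p = 0.257). The part of this rise in the comparison of NRP-2 with VEGF-C siRNA was not tested. The 5 epithelial markers had mean values between 13.56 and 13.94 on the 6 arrays. Of the prostate luminal markers, KLK3 and TMPRSS2 passed the filter and KLK2 did not (brightest probe set at 2.45). KLK3 had 6.26 and 6.29 for NRP-2 siRNA, 6.87 and 6.70 for VEGF-C siRNA, and 6.29 and 6.32 for scrambled siRNA. Its change was 0.48 for VEGF-C siRNA (limma's adjusted p = 0.242) and -0.03 for NRP-2 siRNA (adjusted p = 0.931). TMPRSS2 had 7.02 and 8.28 for NRP-2 siRNA, 8.66 and 8.67 for VEGF-C siRNA, and 9.18 and 9.25 for scrambled siRNA, so that both targeting siRNAs lay below scrambled siRNA (adjusted p = 0.249 for NRP-2 siRNA and 0.545 for VEGF-C siRNA). Of 9 markers of blood, endothelial and stromal cells, PTPRC, CD3E, CD14, CDH5, PDGFRB and DCN were under log2 4, and PECAM1, COL1A1 and COL3A1 were above it. COL1A1 had 9.56 and 10.26 for NRP-2 siRNA, 9.97 and 10.13 for VEGF-C siRNA, and 10.73 and 10.77 for scrambled siRNA, again lower with both targeting siRNAs (adjusted p = 0.289 for NRP-2 siRNA and 0.306 for VEGF-C siRNA), while the ranges of PECAM1 and COL3A1 overlapped between NRP-2 and scrambled siRNA. The part of KLK3, TMPRSS2 and COL1A1 in the results on replication genes was not tested.

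The mean level of the replication genes differed by array number in every group, and the VEGF-C siRNA arrays overlapped with both other groups. The mean of the 52 members was 10.21 on NRP-2 siRNA array 1 and 9.14 on array 2, 9.70 and 8.99 for VEGF-C siRNA, and 9.10 and 8.76 for scrambled siRNA. Array 1 was therefore the higher of its pair in every group, and the 2 NRP-2 siRNA arrays, although on average the highest, lay 1.07 apart. NRP-2 siRNA array 1 was the highest of the 6 arrays for 43 of the 52 members, which holds for 26.4% of all genes tested, and scrambled array 2 was the lowest for 26 members, which holds for 16.9% of all genes. Genes of G2 and mitosis, of which 26 were measured, had means of 11.03 and 9.99 for NRP-2 siRNA, 11.19 and 10.45 for VEGF-C siRNA, and 10.30 and 8.62 for scrambled siRNA, and their part in the results on replication genes was not tested. In RNA of whole cultures, fewer cells in S phase and less of these transcripts per cell cannot be told apart.

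**Figure D1:**
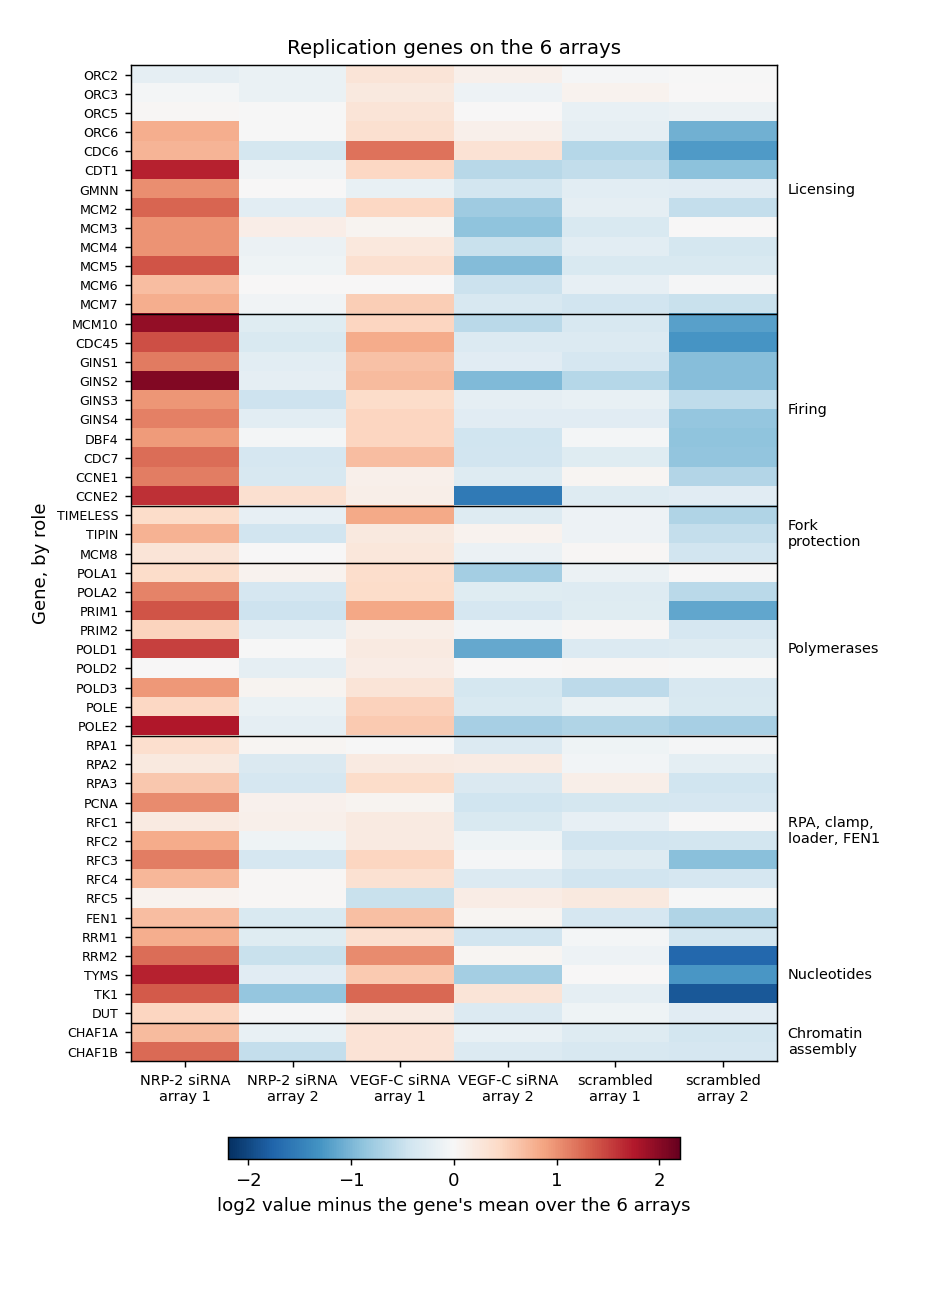
Log2 value of each of the 52 measured replication genes (rows, grouped by role) on each array (columns), minus the gene's mean over the 6 arrays; red is above and blue below that mean. NRP-2 siRNA array 1 holds the highest value of 43 of the 52 genes, and scrambled array 2 the lowest value of 26.

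As many of these genes are textbook targets of E2F factors, their promoters were searched for the letters of E2F-type sites. RefSeq promoters (GRCh38.p14) were on hand for 48 of the 55 genes, and 17 of the 48 (35.4%) held TTTGGCGC, TTTGCCGC, TTTCGCGC or TTTCCCGC on either strand within 250 bases before an annotated start. The same holds for 3.4% of all 27305 genes in the RefSeq table and for 2.79% of its 35116 promoter windows. Matches were found for 6 of 12 licensing genes, 2 of 8 firing genes, 3 of 8 polymerase and primase genes, 3 of 9 genes of RPA, clamp, loader and Okazaki joining, 2 of 5 nucleotide genes, 1 of 4 genes of fork protection with MCM8, and 0 of 2 chromatin assembly genes. In MCM6 and TIPIN, words on opposite strands overlap each other. A match describes letters and does not show that a factor binds there. The 100 bases before the start are printed for 6 genes with such a word before their outermost start, those with the smallest p in any comparison, with the word, or its reverse complement, in capitals. The condition on the outermost start was added after the sequences were seen. The positions are chr18:657553-657652 for TYMS (plus strand), chr13:33818049-33818148 for RFC3 (plus strand), chr16:88803689-88803788 for CDT1 (plus strand), chr16:85688955-85689054 for GINS2 (minus strand), chr11:65261862-65261961 for POLA2 (plus strand), chr12:132687343-132687442 for POLE (minus strand).
TYMS: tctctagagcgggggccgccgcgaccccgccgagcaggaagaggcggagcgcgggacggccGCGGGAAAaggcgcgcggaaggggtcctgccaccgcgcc
RFC3: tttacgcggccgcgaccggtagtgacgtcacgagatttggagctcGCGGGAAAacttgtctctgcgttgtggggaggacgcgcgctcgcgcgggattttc
CDT1: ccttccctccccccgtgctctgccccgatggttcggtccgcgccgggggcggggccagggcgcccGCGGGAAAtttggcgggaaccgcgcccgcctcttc
GINS2: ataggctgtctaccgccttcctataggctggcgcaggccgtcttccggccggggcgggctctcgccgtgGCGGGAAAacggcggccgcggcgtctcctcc
POLA2: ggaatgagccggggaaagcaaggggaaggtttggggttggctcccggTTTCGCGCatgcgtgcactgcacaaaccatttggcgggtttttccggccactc
POLE: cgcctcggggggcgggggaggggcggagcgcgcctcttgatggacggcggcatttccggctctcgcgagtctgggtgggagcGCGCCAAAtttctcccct

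The first comparison, of NRP-2 siRNA with scrambled siRNA, asks which transcripts differ when the co-receptor is targeted. The replication genes stood higher with NRP-2 siRNA by a median of 0.76 on the log2 scale, against 0.01 over all genes tested, and 48 of 52 were above 0, against 51.8% of all genes. The widest differences were in GINS2 (3.27-fold), MCM10 (3.04-fold), CDT1 (2.88-fold), POLE2 (2.78-fold) and TYMS (2.56-fold), with NRP-2 siRNA higher in each. No member passed limma's threshold over all genes (0 of 52, lowest adjusted p 0.347), as no gene did (0%). At an unadjusted p under 0.05 there were 3 members, all higher (6.43% of all genes are higher at that level): ORC6, POLD3 and PCNA. None was lower at that level (0 of 52, 6.85% of all genes). With the array number as a block, 32 members were higher at that level (9.46% of all genes) and 0 lower (7.69%), and still none passed the adjusted threshold (lowest adjusted p 0.146). For 28 of 52 members both NRP-2 siRNA arrays lay above both scrambled arrays (25.3% of all genes), and for ORC2 and ORC3 both lay below (24.4%). Between arrays of the same number, NRP-2 siRNA was the higher on both for 46 members (38.3% of all genes). The median was 1.23 between the arrays numbered 1 and 0.28 between those numbered 2, with 48 and 47 members above 0. Without NRP-2 siRNA array 1 it was 0.20 with 40 members above 0, and without NRP-2 siRNA array 2 it was 1.31.

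Setting VEGF-C siRNA against scrambled siRNA asks the same of the ligand. The median of the members was 0.38, against -0.004 over all genes, and 44 of 52 were above 0 (49.3% of all genes). The widest differences were in TK1 (3.48-fold), CDC6 (3.25-fold) and RRM2 (2.75-fold), with VEGF-C siRNA higher in each, while MCM3, MCM6, CCNE2, POLA1 and POLD1 were among the 8 members below 0. None of the 52 passed limma's threshold (lowest adjusted p 0.255, 0% of all genes). CDC6 was the 1 member with an unadjusted p under 0.05 (6.95% of all genes are higher at that level), and none was lower (0 of 52, 7.8% of all genes). With the array number as a block 14 members were higher (8.89% of all genes) and 0 lower (9.06%), with a lowest adjusted p of 0.124. Both VEGF-C siRNA arrays lay above both scrambled arrays for 18 members (34.6%, against 26.8% of all genes) and below both for none (26.6%). Between arrays of the same number, VEGF-C siRNA was the higher on both for 33 members (32.9% of all genes). The median was 0.57 between the arrays numbered 1 and 0.15 between those numbered 2. It was 0.07 without VEGF-C siRNA array 1, 0.25 without scrambled array 2 and 0.67 without VEGF-C siRNA array 2.

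Both comparisons share the 2 scrambled arrays, so the difference between the targeting siRNAs was tested directly. With NRP-2 siRNA the members stood a median of 0.28 above VEGF-C siRNA (0.02 over all genes), and 42 of 52 were above 0 (52.7% of all genes). The median was 0.57 in the licensing genes, 0.38 in the firing genes and 0.22 in the genes of RPA, clamp, loader and Okazaki joining. Genes of G2 and mitosis had a median of -0.30, with 24 of 26 below 0. No member passed limma's threshold (0 of 52, lowest adjusted p 0.216, 0% of all genes). CCNE2 was higher and ORC2 lower at an unadjusted p under 0.05 (9.54% and 8.66% of all genes), and with the array number as a block 10 members were higher and 2, ORC2 and CDC6, lower at that level (10.9% and 9.46% of all genes, lowest adjusted p 0.135). GMNN, MCM3, CCNE2, RPA1 and PCNA had both NRP-2 siRNA arrays above both VEGF-C siRNA arrays (5 members, 24.1% of all genes), and ORC2 and POLD2 had both below (22.4%). The median was -0.21 without NRP-2 siRNA array 1, -0.03 without VEGF-C siRNA array 2, 0.67 without VEGF-C siRNA array 1 and 0.85 without NRP-2 siRNA array 2.

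**Figure D2:**
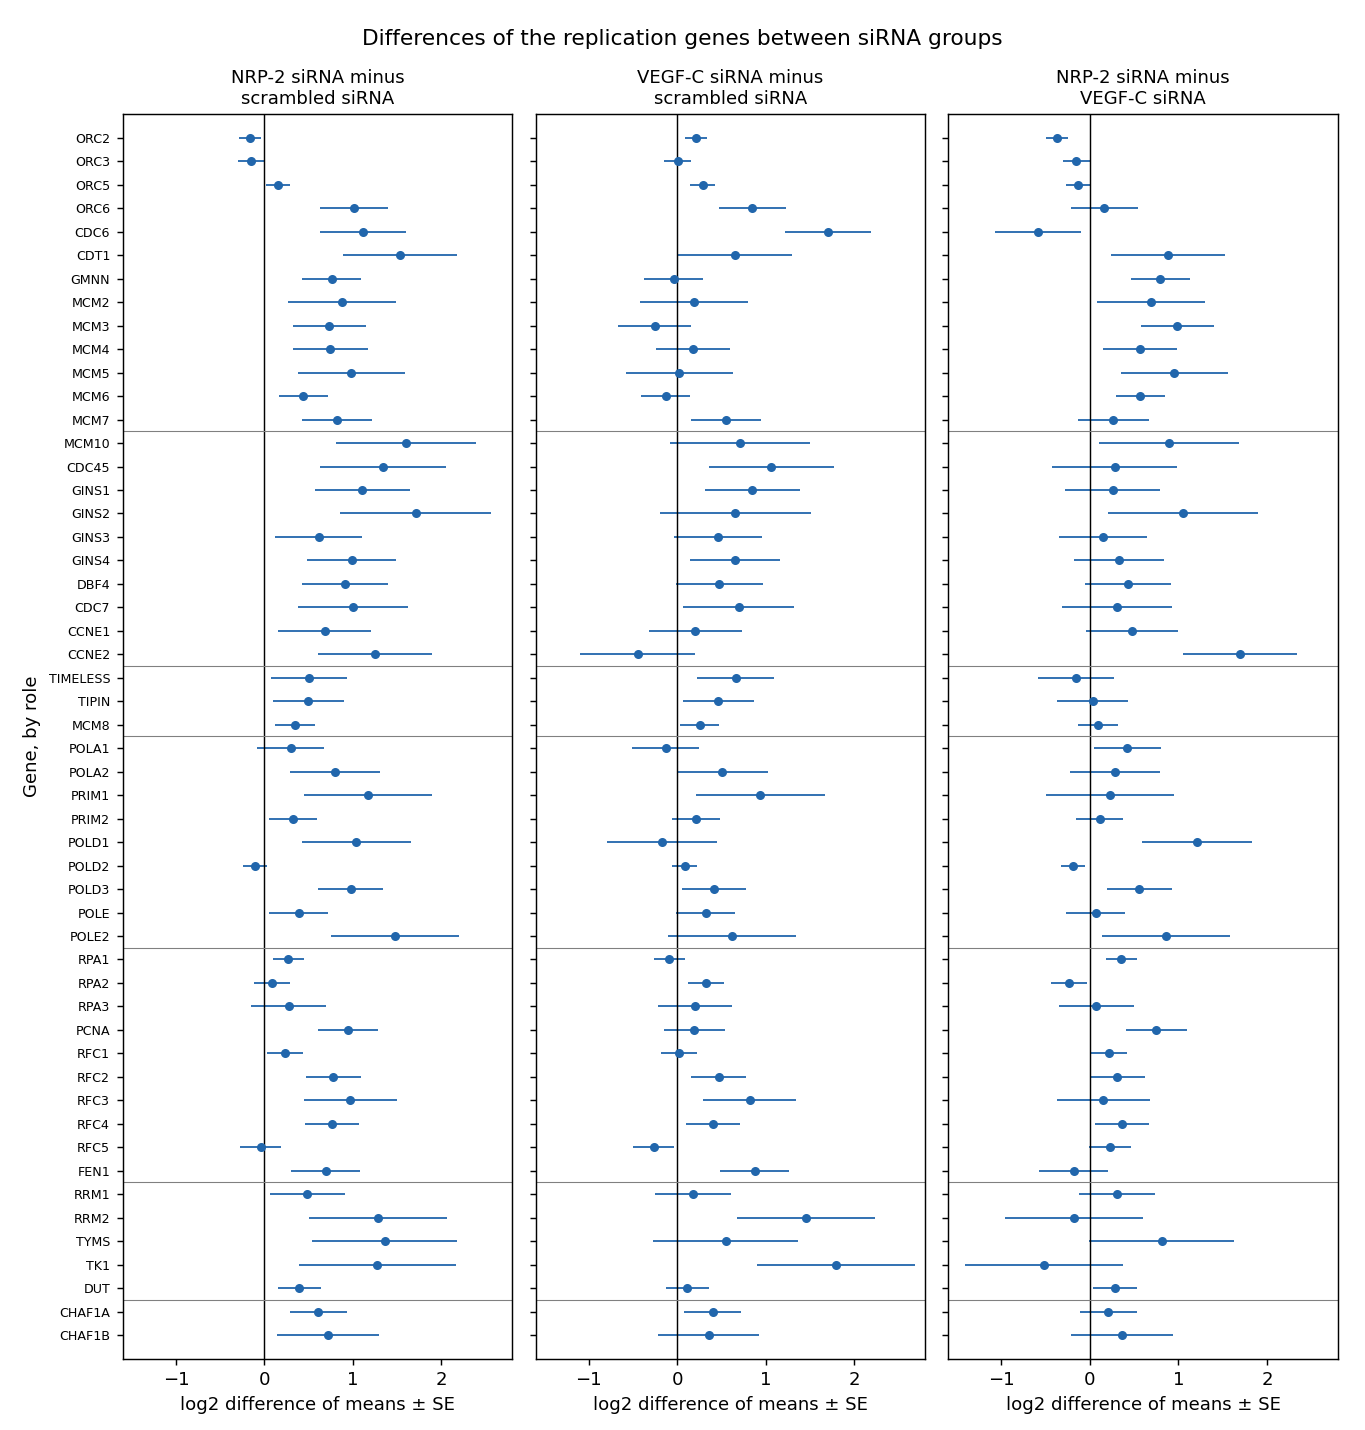
Difference of group means (log2, points) with its standard error (bars) for each measured replication gene (rows, grouped by role) in the 3 comparisons of siRNA groups, with 2 arrays in each group. NRP-2 siRNA lies above scrambled siRNA for 48 of 52 genes, VEGF-C siRNA above scrambled siRNA for 44, and NRP-2 siRNA above VEGF-C siRNA for 42.

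Array 1 was set against array 2 within groups to describe what the array number carries. The members stood a median of 0.70 higher on array 1 (0.004 over all genes), and 51 of 52 were above 0 (51% of all genes), the exception being RFC5. For 38 members array 1 was higher in all 3 groups (15.7% of all genes), and for none was it lower in all 3 (16.4%). Of the other members, RFC5 was lower on VEGF-C siRNA array 1, and the rest, among them MCM3 (-0.34), MCM6, CCNE2, POLD3 and PCNA, were lower on scrambled array 1. In the fit with group and array number, 35 members had an unadjusted p under 0.05, all higher (5.52% of all genes) and none lower (4.67%), and none passed limma's threshold (lowest adjusted p 0.123, 0% of all genes). With either VEGF-C siRNA array left out, which leaves the NRP-2 and scrambled pairs to carry the comparison, limma called 374 genes (3.36%) and 7 of the 52 members, all higher on array 1: TK1 and RRM2 (adjusted p = 0.0112 each), TYMS (0.0150), CDC45 (0.0236), DBF4 (0.0276), ORC6 (0.0316) and PRIM1 (0.0368). Genes of G2 and mitosis stood a median of 1.15 higher on array 1, with 26 of 26 higher in every group. The 3 stromal and endothelial markers above the filter were lower on array 1 in all 3 groups (3 of 3), with list means of 8.93 and 9.98 for NRP-2 siRNA, 8.73 and 9.25 for VEGF-C siRNA and 9.28 and 9.95 for scrambled siRNA. The part of either list in the difference by array number was not tested.

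The difference between the arrays of a group was not the same size in every role. The median of array 1 minus array 2 over the members was 1.02 for NRP-2 siRNA, 0.70 for VEGF-C siRNA and 0.26 for scrambled siRNA. Between the scrambled arrays it was 0.06 for licensing genes, 0.06 for polymerases and primase and 0.07 for RPA, clamp, loader and Okazaki joining, but 0.61 for firing genes, 1.29 for nucleotide supply and 1.66 for G2 and mitosis. With NRP-2 siRNA the licensing genes were 0.89 apart, the polymerases 0.90, the firing genes 1.46 and the nucleotide genes 1.71. Each of these is the difference of 2 arrays and has no replicate check, and whether groups differ in it was not tested.

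**Figure D3:**
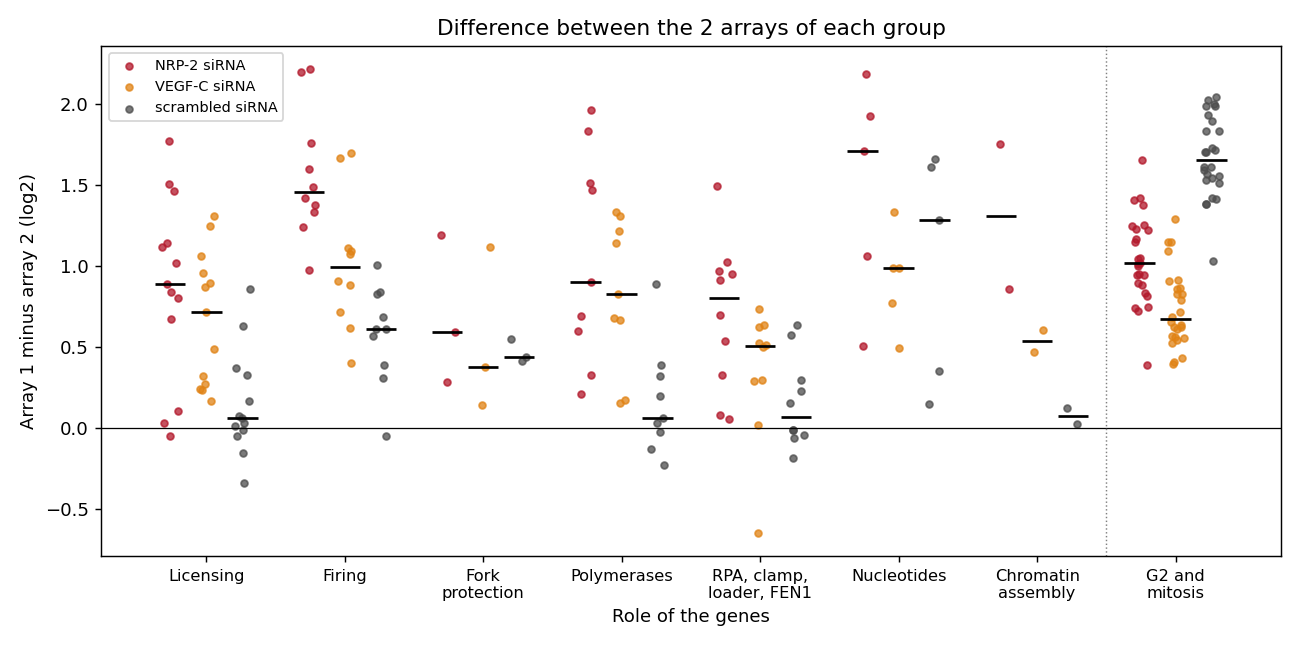
Array 1 minus array 2 (log2) for each gene (points) in the NRP-2 siRNA, VEGF-C siRNA and scrambled pair of arrays, by role, with the median of each set as a black bar; G2 and mitosis genes stand to the right of the dotted line. Among the scrambled arrays the medians are 0.06 for licensing and 1.29 for nucleotide genes, and with NRP-2 siRNA they are 0.89 and 1.71.

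Of the 13 licensing genes, 11 were above 0 with NRP-2 siRNA (51.8% of all genes) and 10 with VEGF-C siRNA (49.3% of all genes). CDC6, CDT1 and all of MCM2 to MCM7 were above 0 with NRP-2 siRNA, while MCM3 and MCM6 were below 0 with VEGF-C siRNA. The subunits of the origin recognition complex varied little, apart from ORC6. CDT1, which brings the helicase to origins and is destroyed in S phase, had 9.66 and 7.90 on the NRP-2 siRNA arrays, 8.44 and 7.37 on the VEGF-C siRNA arrays, and 7.44 and 7.07 on the scrambled arrays. Both NRP-2 siRNA arrays lay above both scrambled arrays, by a mean of 1.53 (SE 0.64, limma's adjusted p = 0.388). CDC6, the ATPase that works with CDT1, had 8.88 and 7.74 for NRP-2 siRNA, 9.33 and 8.46 for VEGF-C siRNA, and 7.50 and 6.88 for scrambled siRNA. All 4 arrays of targeting siRNAs were above the scrambled ones, and VEGF-C siRNA was the higher of the targeting siRNAs for each array number. The change of CDC6 was 1.70 for VEGF-C siRNA (SE 0.49, adjusted p = 0.255) and 1.12 for NRP-2 siRNA (SE 0.49, adjusted p = 0.403).

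GMNN, the inhibitor of CDT1, showed another order. It had 12.50 and 11.48 for NRP-2 siRNA, 11.31 and 11.08 for VEGF-C siRNA, and 11.25 and 11.22 for scrambled siRNA. The NRP-2 siRNA arrays stood above the other four, the VEGF-C siRNA and scrambled arrays overlapped, and the changes against scrambled siRNA were 0.76 (SE 0.34, adjusted p = 0.405) for NRP-2 siRNA and -0.04 (SE 0.34, adjusted p = 0.97) for VEGF-C siRNA.

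The 6 subunits of the MCM helicase, the motor that unwinds DNA at the fork, shared the order of GMNN in part. Their changes with NRP-2 siRNA lay between 0.44 (MCM6) and 0.98 (MCM5), and those with VEGF-C siRNA between -0.26 (MCM3) and 0.55 (MCM7). MCM3 had 10.89 and 10.05 for NRP-2 siRNA, 9.96 and 9.01 for VEGF-C siRNA, and 9.57 and 9.91 for scrambled siRNA. Here the scrambled arrays lay between those of the other groups for array 2 and below both for array 1, and NRP-2 siRNA was above VEGF-C siRNA by 0.99 (SE 0.41, adjusted p = 0.294). MCM2 had 10.06 and 8.55 for NRP-2 siRNA, 9.24 and 7.99 for VEGF-C siRNA, and 8.59 and 8.26 for scrambled siRNA. Its NRP-2 siRNA and scrambled ranges overlapped, and array 1 was above array 2 by 1.03 (SE 0.25, adjusted p = 0.274). MCM5 had 9.06 and 7.59 for NRP-2 siRNA, 8.03 and 6.72 for VEGF-C siRNA, and 7.35 and 7.34 for scrambled siRNA. MCM7 had 10.19 and 9.30 for NRP-2 siRNA, 9.93 and 9.03 for VEGF-C siRNA, and 8.96 and 8.90 for scrambled siRNA. In both, the scrambled arrays were close together and NRP-2 siRNA lay above them, while VEGF-C siRNA lay on both sides of them for MCM5 and above them for MCM7.

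Within the origin recognition complex, which marks origins, ORC6 stood apart from the subunits ORC2, ORC3 and ORC5. ORC6 had 11.29 and 10.48 for NRP-2 siRNA, 10.84 and 10.60 for VEGF-C siRNA, and 10.30 and 9.44 for scrambled siRNA. The targeting siRNAs did not overlap with scrambled siRNA, with changes of 1.01 for NRP-2 siRNA (SE 0.38, adjusted p = 0.357) and 0.85 for VEGF-C siRNA (SE 0.38, adjusted p = 0.377). ORC2, ORC3 and ORC5 had changes between -0.16 and 0.15 for NRP-2 siRNA and between 0.01 and 0.29 for VEGF-C siRNA. The probe sets of ORC2 and ORC5 did not keep one sign. A dimmer ORC2 probe set gave -0.30 for VEGF-C siRNA, and the 3 of ORC5 ranged widely (-0.34 to 0.15 for NRP-2 siRNA and -0.05 to 0.29 for VEGF-C siRNA). ORC1, the subunit whose level follows the cell cycle, was near the floor with 3.81 and 2.19 for NRP-2 siRNA, 2.82 and 2.14 for VEGF-C siRNA, and 2.17 and 2.14 for scrambled siRNA.

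All of the firing genes stood above scrambled siRNA with NRP-2 siRNA (10 of 10, median 1.05; 51.8% of all genes), and 9 of 10 with VEGF-C siRNA (median 0.66; 49.3% of all genes). GINS2, a subunit of the GINS complex of the active helicase, had 10.63 and 8.42 for NRP-2 siRNA, 9.31 and 7.64 for VEGF-C siRNA, and 7.97 and 7.66 for scrambled siRNA. NRP-2 siRNA was above scrambled siRNA on both arrays by a mean of 1.71 (SE 0.85, adjusted p = 0.438), while VEGF-C siRNA array 2 lay just below the scrambled arrays. A dimmer GINS2 probe set showed no such spread, with changes of 0.03 for NRP-2 siRNA and 0.01 for VEGF-C siRNA. GINS1, GINS3 and GINS4 code for the other subunits of the complex. GINS1 had 11.72 and 10.35 for NRP-2 siRNA, 11.22 and 10.34 for VEGF-C siRNA, and 10.21 and 9.65 for scrambled siRNA, with both targeting siRNAs above it. The 3 changes lay between 0.61 (GINS3) and 1.11 (GINS1) for NRP-2 siRNA and between 0.46 (GINS3) and 0.85 (GINS1) for VEGF-C siRNA, and none passed the threshold.

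CDC45, which joins GINS and MCM in the helicase, had 7.41 and 5.65 for NRP-2 siRNA, 6.81 and 5.70 for VEGF-C siRNA, and 5.70 and 4.69 for scrambled siRNA. Within every group array 1 was higher by at least 1.01, and the difference by array number was 1.29 (SE 0.18, adjusted p = 0.133). MCM10, which acts at helicase activation, had 7.72 and 5.52 for NRP-2 siRNA, 6.26 and 5.19 for VEGF-C siRNA, and 5.43 and 4.59 for scrambled siRNA. The 3 MCM10 probe sets past the filter gave changes of 1.53 to 2.03 for NRP-2 siRNA and 0.72 to 1.54 for VEGF-C siRNA, all above 0.

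DBF4, the activating subunit of the CDC7 kinase, had 12.04 and 11.06 for NRP-2 siRNA, 11.57 and 10.66 for VEGF-C siRNA, and 11.05 and 10.22 for scrambled siRNA. The groups kept this order on both array numbers, array 1 was above array 2 by 0.98 for NRP-2 siRNA, 0.91 for VEGF-C siRNA and 0.83 for scrambled siRNA, and the difference by array number was 0.91 (SE 0.11, adjusted p = 0.123). CDC7 itself had 8.07 and 6.47 for NRP-2 siRNA, 7.51 and 6.42 for VEGF-C siRNA, and 6.58 and 5.96 for scrambled siRNA. It kept the same order on both array numbers, with changes of 1.00 for NRP-2 siRNA (SE 0.62, adjusted p = 0.509) and 0.69 for VEGF-C siRNA (SE 0.62, adjusted p = 0.626).

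The cyclins E, partners of CDK2 at the start of S phase, differed from each other. CCNE2 had 10.17 and 8.92 for NRP-2 siRNA, 8.70 and 7.002 for VEGF-C siRNA, and 8.27 and 8.32 for scrambled siRNA. Both NRP-2 siRNA arrays were above the other four, and VEGF-C siRNA array 2 was the lowest of all. NRP-2 siRNA was above VEGF-C siRNA by 1.70 (SE 0.65, adjusted p = 0.26), the widest gap between the targeting siRNAs among the 52 members. CCNE1 had 7.73 and 6.24 for NRP-2 siRNA, 6.71 and 6.31 for VEGF-C siRNA, and 6.64 and 5.96 for scrambled siRNA, so that all groups overlapped.

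Of the genes that protect the fork, TIMELESS and TIPIN, which form a complex that travels with it, were above scrambled siRNA on both array numbers in both groups. TIMELESS had 8.35 and 7.75 for NRP-2 siRNA, 8.77 and 7.65 for VEGF-C siRNA, and 7.82 and 7.27 for scrambled siRNA, and a difference by array number of 0.75 (SE 0.15, adjusted p = 0.21). TIPIN had 9.51 and 8.32 for NRP-2 siRNA, 8.96 and 8.82 for VEGF-C siRNA, and 8.63 and 8.22 for scrambled siRNA. Neither gene passed the threshold against scrambled siRNA, and for both the NRP-2 siRNA and scrambled ranges overlapped. MCM8, a helicase of recombination rather than of licensing, lay within a narrower range, with 9.26 and 8.98 for NRP-2 siRNA, 9.22 and 8.85 for VEGF-C siRNA, and 8.997 and 8.56 for scrambled siRNA. CLSPN, the adaptor claspin of the replication checkpoint, had 5.45 and 3.55 for NRP-2 siRNA, 3.54 and 3.43 for VEGF-C siRNA, and 3.55 and 3.42 for scrambled siRNA in its brightest probe set. Only NRP-2 siRNA array 1 was clear of the floor there, and the other 3 CLSPN probe sets did not exceed 2.93 on any array.

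The polymerases divided between subunits that varied and subunits that did not. POLE2, the second subunit of the leading-strand polymerase, had 10.20 and 8.23 for NRP-2 siRNA, 9.01 and 7.70 for VEGF-C siRNA, and 7.77 and 7.71 for scrambled siRNA. Its NRP-2 siRNA arrays were above the scrambled ones by a mean of 1.48 (SE 0.72, adjusted p = 0.434), and the VEGF-C siRNA arrays overlapped with them. POLD1, the catalytic subunit of the lagging-strand polymerase, had 8.19 and 6.68 for NRP-2 siRNA, 6.89 and 5.56 for VEGF-C siRNA, and 6.38 and 6.41 for scrambled siRNA. The scrambled arrays were close together, the VEGF-C siRNA arrays lay on both sides of them, and NRP-2 siRNA was above VEGF-C siRNA by 1.21 (SE 0.62, adjusted p = 0.377).

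POLD3, an accessory subunit of the same enzyme, had 10.78 and 9.87 for NRP-2 siRNA, 10.10 and 9.43 for VEGF-C siRNA, and 9.23 and 9.46 for scrambled siRNA, a change of 0.97 for NRP-2 siRNA (SE 0.36, adjusted p = 0.357). POLD2, another of its smaller subunits, had 9.42 and 9.21 for NRP-2 siRNA, 9.58 and 9.43 for VEGF-C siRNA, and 9.44 and 9.41 for scrambled siRNA. The 6 values of POLD2 thus lay within a narrow band while those of POLD1 and POLD3 did not. PRIM1, the catalytic subunit of primase, which makes the RNA primers, had 10.15 and 8.31 for NRP-2 siRNA, 9.61 and 8.39 for VEGF-C siRNA, and 8.50 and 7.62 for scrambled siRNA, and array 1 was above array 2 by 1.31 (SE 0.20, adjusted p = 0.142). PRIM2, its partner, had changes of 0.32 for NRP-2 siRNA and 0.21 for VEGF-C siRNA. POLE, the catalytic subunit of the leading-strand polymerase, had 0.39 for NRP-2 siRNA and 0.32 for VEGF-C siRNA. Of the polymerase bound to primase, the small subunit POLA2 had changes of 0.80 for NRP-2 siRNA and 0.51 for VEGF-C siRNA, and the catalytic subunit POLA1 had 0.30 for NRP-2 siRNA and -0.13 for VEGF-C siRNA.

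PCNA, the sliding clamp that holds polymerases on DNA, had 14.13 and 13.19 for NRP-2 siRNA, 13.16 and 12.66 for VEGF-C siRNA, and 12.71 and 12.72 for scrambled siRNA. Both NRP-2 siRNA arrays were above the other four, and the change against scrambled siRNA was 0.94 (SE 0.34), with the lowest adjusted p of the members in that comparison (0.347). Without NRP-2 siRNA array 1 the change of PCNA was 0.47. Of the RFC subunits, which load the clamp, RFC3 had the widest changes, with 0.97 for NRP-2 siRNA and 0.82 for VEGF-C siRNA. It had 11.11 and 9.62 for NRP-2 siRNA, 10.47 and 9.96 for VEGF-C siRNA, and 9.72 and 9.08 for scrambled siRNA, and NRP-2 siRNA array 2 lay between the scrambled arrays. RFC2 (0.78 for NRP-2 siRNA and 0.47 for VEGF-C siRNA) and RFC4 (0.77 for NRP-2 siRNA and 0.41 for VEGF-C siRNA) had both targeting siRNAs above scrambled siRNA with no overlap. RFC1, the large subunit, had 0.24 for NRP-2 siRNA and 0.02 for VEGF-C siRNA.

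RFC5 depended on the probe set. Its brightest probe set had 11.58 and 11.53 for NRP-2 siRNA, 11.01 and 11.66 for VEGF-C siRNA, and 11.71 and 11.49 for scrambled siRNA, and gave changes of -0.04 for NRP-2 siRNA and -0.27 for VEGF-C siRNA. The next had 10.42 and 9.81 for NRP-2 siRNA, 10.20 and 9.57 for VEGF-C siRNA, and 9.53 and 9.53 for scrambled siRNA. Its changes were 0.58 for NRP-2 siRNA and 0.35 for VEGF-C siRNA, and the dimmest probe set gave 1.05 for NRP-2 siRNA and 0.98 for VEGF-C siRNA. The mean over the 3 probe sets was 0.53 above scrambled siRNA for NRP-2 siRNA and 0.35 for VEGF-C siRNA, so RFC5 has no settled direction. Over all members, 22 genes had several probe sets past the filter, and these shared a sign in 19 genes for NRP-2 siRNA, 16 for VEGF-C siRNA and 20 for the array number. Taken as probe sets, 72 of 80 were above 0 for NRP-2 siRNA, 67 for VEGF-C siRNA and 78 for the array number. The same shares over all genes and probe sets were not computed, so these counts are no result about the members. Several of the 80 probe sets belong to the same gene and are not separate observations.

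The single-strand binding protein RPA varied less than the clamp. The changes of RPA1, RPA2 and RPA3 lay between 0.08 (RPA2) and 0.27 (RPA1 and RPA3) for NRP-2 siRNA, and between -0.09 (RPA1) and 0.32 (RPA2) for VEGF-C siRNA. RPA3 was higher on array 1 of every group, with 12.43 and 11.46 for NRP-2 siRNA, 12.24 and 11.51 for VEGF-C siRNA, and 11.96 and 11.38 for scrambled siRNA (0.76, SE 0.13, adjusted p = 0.174). FEN1, the nuclease that trims Okazaki fragments, had 11.58 and 10.56 for NRP-2 siRNA, 11.56 and 10.94 for VEGF-C siRNA, and 10.52 and 10.23 for scrambled siRNA. Its targeting siRNAs lay above scrambled siRNA with no overlap, with changes of 0.69 for NRP-2 siRNA (SE 0.39, adjusted p = 0.475) and 0.88 for VEGF-C siRNA (SE 0.39, adjusted p = 0.376). A dimmer FEN1 probe set overlapped for NRP-2 siRNA, with 7.79 on its array 2 against 7.85 on scrambled array 1. LIG1, the ligase that seals the fragments, stayed near the floor, with 3.86 and 3.06 for NRP-2 siRNA, 2.90 and 2.29 for VEGF-C siRNA, and 2.91 and 2.90 for scrambled siRNA.

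Among the enzymes of nucleotide supply, TK1, RRM2 and TYMS were higher on array 1 of every group by 0.99 or more. TK1, thymidine kinase of the salvage pathway, had 10.42 and 8.23 for NRP-2 siRNA, 10.34 and 9.35 for VEGF-C siRNA, and 8.88 and 7.22 for scrambled siRNA. VEGF-C siRNA was above both scrambled arrays, NRP-2 siRNA array 2 was below scrambled array 1, and the difference by array number was 1.61 (SE 0.24, adjusted p = 0.138). RRM2, the S phase subunit of ribonucleotide reductase, had 13.66 and 11.95 for NRP-2 siRNA, 13.48 and 12.49 for VEGF-C siRNA, and 12.33 and 10.72 for scrambled siRNA. It behaved as TK1 did, with changes of 1.28 for NRP-2 siRNA (SE 0.78, adjusted p = 0.504) and 1.46 for VEGF-C siRNA (SE 0.78, adjusted p = 0.434), and 1.44 by array number (SE 0.17, adjusted p = 0.123).

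TYMS, thymidylate synthase, had 13.63 and 11.70 for NRP-2 siRNA, 12.52 and 11.19 for VEGF-C siRNA, and 11.95 and 10.66 for scrambled siRNA. Every comparison against scrambled siRNA overlapped, since scrambled array 1 was above array 2 of both targeting siRNAs, and the difference by array number was 1.52 (SE 0.17, adjusted p = 0.123). RRM1, the partner subunit of RRM2, had changes of 0.48 for NRP-2 siRNA and 0.18 for VEGF-C siRNA. DUT, the enzyme that keeps uracil out of DNA, had 0.40 for NRP-2 siRNA and 0.11 for VEGF-C siRNA. The 2 large subunits of the histone chaperone CAF-1, which deposits histones behind the fork, both had their highest value on NRP-2 siRNA array 1. CHAF1A had 9.04 and 8.18 for NRP-2 siRNA, 8.64 and 8.17 for VEGF-C siRNA, and 8.06 and 7.94 for scrambled siRNA, and its groups of targeting siRNAs lay above the scrambled arrays. A CHAF1A probe set near the filter overlapped for VEGF-C siRNA, with 4.27 and 3.535 against 4.27 and 3.87 for scrambled siRNA (change -0.17). CHAF1B had 6.58 and 4.82 for NRP-2 siRNA, 5.64 and 5.04 for VEGF-C siRNA, and 4.996 and 4.97 for scrambled siRNA. For CHAF1B, NRP-2 siRNA array 2 was the lowest of the 6 arrays, so its mean change of 0.72 joins a value above scrambled siRNA on array 1 with one below it on array 2.

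**Figure D4:**
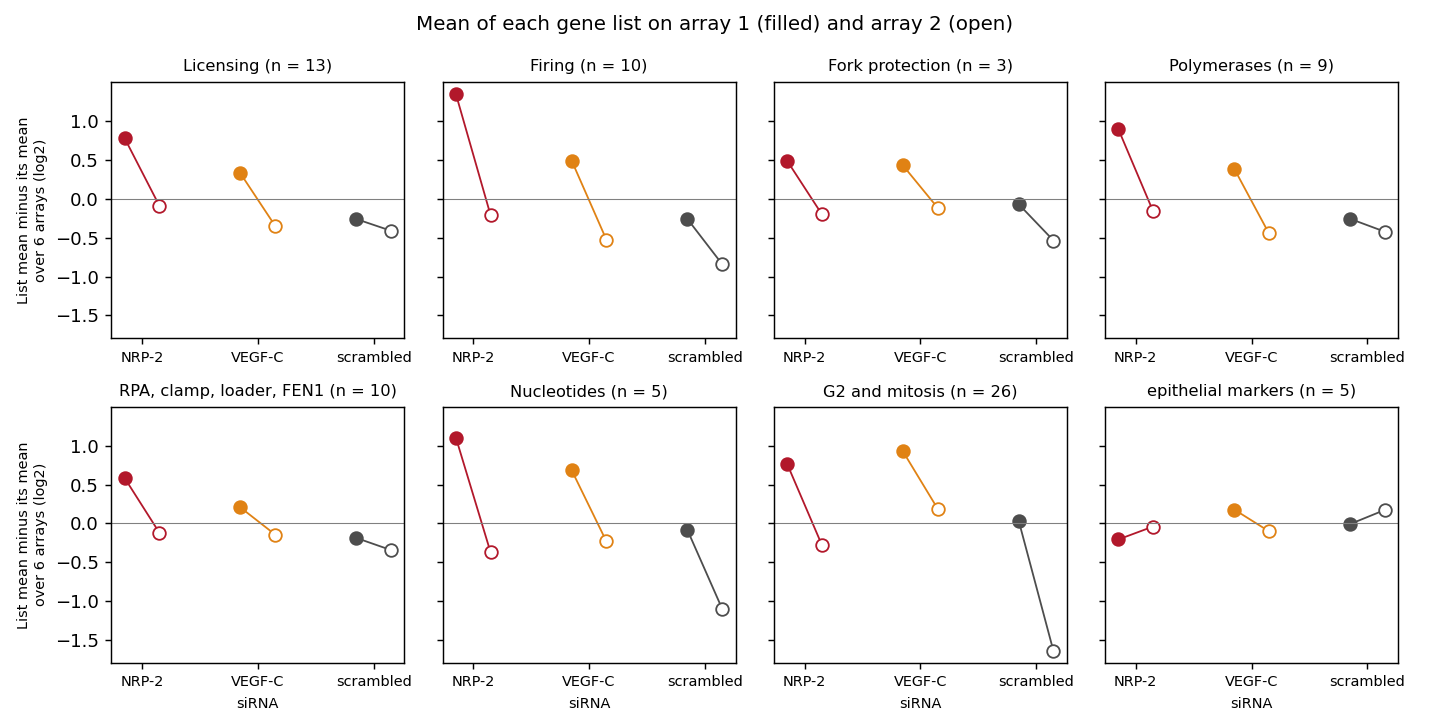
Mean log2 value of each gene list on array 1 (filled) and array 2 (open) of each siRNA group, minus the list's mean over the 6 arrays, with n genes in each list. The 6 replication lists drawn (chromatin assembly, with 2 genes, is left out) and the G2 and mitosis list are higher on array 1 in each group, while the epithelial markers lie between 13.56 and 13.94 before centring.

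Other genes of the pathway were drawn from lists chosen by role. Of 22 other replication factors measured, 17 were above 0 with NRP-2 siRNA (median 0.35; 51.8% of all genes are above 0) and 18 with VEGF-C siRNA (median 0.24; 49.3% of all genes). Array 1 was above array 2 in all 3 groups for 12 of them (15.7% of all genes). None passed limma's threshold (0 of 22), and at an unadjusted p under 0.05 there were 2 for NRP-2 siRNA (6.43% of all genes are higher) and 3 for VEGF-C siRNA (6.95%), all higher. CHEK1, the checkpoint kinase that protects forks, had 10.02 and 8.71 for NRP-2 siRNA, 9.61 and 9.14 for VEGF-C siRNA, and 9.21 and 8.41 for scrambled siRNA. RNASEH2B changed by 0.47 with NRP-2 siRNA (limma's adjusted p = 0.603) and by -0.415 with VEGF-C siRNA (adjusted p = 0.644). Of 24 other enzymes of nucleotide synthesis, most of which also serve RNA synthesis, 13 were above 0 with NRP-2 siRNA (median 0.02) and 18 with VEGF-C siRNA (median 0.19), beside the same shares of all genes, and none passed the threshold (0 of 24).

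The 13 genes of histone supply and replication-coupled chromatin were above 0 in 13 cases with NRP-2 siRNA (median 0.34; 51.8% of all genes) and 8 with VEGF-C siRNA (median 0.18; 49.3% of all genes), none past the threshold. ASF1B, a histone chaperone, had 9.37 and 7.36 for NRP-2 siRNA, 9.01 and 7.24 for VEGF-C siRNA, and 7.51 and 5.88 for scrambled siRNA, and stood 1.80 higher on array 1 (SE 0.12, adjusted p = 0.123). UHRF1, which recruits the maintenance DNA methyltransferase, had 12.24 and 10.65 for NRP-2 siRNA, 11.17 and 9.96 for VEGF-C siRNA, and 10.30 and 9.83 for scrambled siRNA. The 2 genes overlapped differently: both NRP-2 siRNA arrays of UHRF1 lay above both scrambled arrays, and those of ASF1B did not. HELLS changed by 0.61 with NRP-2 siRNA (limma's adjusted p = 0.598) and by -0.63 with VEGF-C siRNA (adjusted p = 0.577).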

How the data were processed

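PC3 cells were profiled on 6 Affymetrix arrays. The values the authors deposited are on a log2 scale, 1 per probe set. Partek and GCRMA are named, without versions, in the submitters' processing notes. GCRMA corrects background by probe sequence and compresses low values, so changes of dim genes are understated. Levels of different probe sets are not comparable. Groups were taken from the labels and array numbers from the titles.

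Gene names came from the platform annotation, whose symbols can be old (41091 probe sets with 1 gene, 1801 with several, 11721 with none, 62 controls); 0 symbols changed through Entrez identifiers. Probe sets naming 1 gene and averaging log2 4 or more were kept (19946), and each of 11131 genes was represented by the brightest. limma 3.58.1 in R 4.3.3 (lmFit, eBayes, two-sided) was fitted to all 6 arrays with group as the factor, leaving 3 residual degrees of freedom, and for the array number with group and number, leaving 2. The deviations of same-numbered arrays from their group means were correlated across genes. The correlations were 0.119 (NRP-2 and VEGF-C siRNA), 0.579 (NRP-2 and scrambled) and 0.112 (VEGF-C and scrambled). Both that involve VEGF-C siRNA lay just above 0.1. As each exceeded 0.1, the number was also entered as a block, as an alternative to group alone in the siRNA comparisons. Counts of members are given with and without it as a block. Values of single genes are from the fit without the block, whose SE for group changes is often larger; the block changed no call at the adjusted threshold. The pairing comes from the numbers in the titles and these correlations, since the labels do not state one.

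The procedure was tested on simulated data. Members and lists were chosen with earlier results of these data known. Lists are described by counts and medians beside those of all genes, with no test of a list. In each role, the members singled out were the 3 with the smallest unadjusted p in any of the 4 comparisons. Those at the ends of the role's range of changes were added. Most are given with values on every array. For the 3, the smallest p was mostly that of the array number. Others were added for their role. From each other list at most 3 genes with the smallest p are named, with E2F1, E2F2, CCND1 and CCND3 added.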

Additional observations from a re-analysis of the deposited data

Results flagged for a closer look

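ORC2, a subunit of the origin recognition complex, had the targeting siRNAs on opposite sides of scrambled siRNA. It had 9.17 and 9.21 for NRP-2 siRNA, 9.64 and 9.48 for VEGF-C siRNA, and 9.34 and 9.36 for scrambled siRNA. NRP-2 siRNA was below VEGF-C siRNA by a log2 difference of -0.371 (SE 0.12), which did not pass limma's threshold (adjusted p = 0.216, and 0.229 with the array number as a block). The same arrangement, in either direction, was found for 848 of the 11131 genes (7.62%). A dimmer ORC2 probe set gave 0.24 for the same comparison.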

How the results depend on the processing

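With 2 arrays a group, the number of arrays limits the precision, and a missed threshold does not show that genes did not differ. The share of all genes higher at an unadjusted p under 0.05 moves with the setting. It was 6.43% as reported and 9.46% with the replicate block for NRP-2 against scrambled siRNA. For VEGF-C against scrambled siRNA it was 6.95% and 8.89%, and for NRP-2 against VEGF-C siRNA 9.54% and 10.9%. That share was not computed for the other settings, so their counts are no result about the members. Counts of members higher at that level varied most. For NRP-2 siRNA against scrambled siRNA they were 3 as reported, 32 with the replicate block, 0 with no low-value filter, and 5 with a mean of at least log2 6, quantile normalization or an intensity trend; for VEGF-C siRNA against scrambled siRNA 1 as reported, 14 with the replicate block, 3 with no filter and 5 with only the 4 arrays compared; for NRP-2 against VEGF-C siRNA 1 as reported, 10 with the replicate block and 0 with no filter or only the 4 arrays. With no filter limma called 1 gene, no member, in the comparisons of VEGF-C siRNA with scrambled siRNA and of NRP-2 with VEGF-C siRNA. With arrays shifted to equal medians 3 members in place of 5 had NRP-2 above VEGF-C siRNA without overlap. As reported, that held for 24.1% of all genes, and the share after the shift was not computed. The mean of all probe sets turned the sign of ORC2 with VEGF-C siRNA (-0.046) and by array number (-0.050), and of RFC5 with NRP-2 siRNA (0.53), VEGF-C siRNA (0.35) and by array number (0.37). The other 977 of 982 values of named members kept their sign under alternatives that kept every array of the groups compared, and none passed the adjusted threshold (0 of 982). The replicate block changed no call at the adjusted threshold.

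With 1 array left out at a time, the median change of members ran from 0.20 to 1.31 for NRP-2 against scrambled siRNA, from 0.072 to 0.67 for VEGF-C against scrambled siRNA, from -0.21 to 0.85 for NRP-2 against VEGF-C siRNA, and from 0.50 to 0.89 for array 1 against array 2. Members above 0 numbered 40 to 49 for NRP-2 against scrambled siRNA, 32 to 51 for VEGF-C against scrambled siRNA, 15 to 47 for NRP-2 against VEGF-C siRNA, and 49 to 51 for array 1 against array 2. Members higher at an unadjusted p under 0.05 numbered 0 to 33 for NRP-2 against scrambled siRNA, 0 to 5 for VEGF-C against scrambled siRNA, 0 to 19 for NRP-2 against VEGF-C siRNA, and 22 to 39 for array 1 against array 2. No gene was called at an adjusted p under 0.05 in the 3 comparisons of siRNA groups with an array left out (0 genes), and between 0 and 374 genes, 0 to 7 of them members, in that of array 1 with array 2, the highest without VEGF-C siRNA. Of 792 values of named members with an array left out, 727 kept their sign. The ranges of those that turned are as follows. For NRP-2 against scrambled siRNA they ran from -0.16 to 1.60 in CHAF1B, -0.10 to 1.32 in GINS3, -0.16 to 0.069 in RFC5, -0.19 to 0.35 in RPA2, -0.21 to 0.76 in RPA3 and -0.099 to 1.09 in TIPIN. For VEGF-C against scrambled siRNA they ran from -1.30 to 0.40 in CCNE2, -0.13 to 0.36 in DUT, -0.18 to 1.49 in GINS2, -0.43 to 0.81 in MCM2, -0.73 to 0.22 in MCM3, -0.055 to 0.45 in PCNA, -0.84 to 0.49 in POLD1, -0.092 to 0.74 in POLE, -0.037 to 1.27 in POLE2, -0.59 to 0.057 in RFC5, -0.16 to 0.57 in RPA3 and -0.12 to 1.22 in TYMS. For NRP-2 against VEGF-C siRNA they ran from -0.60 to 1.16 in CDC45, -0.49 to 1.10 in CDC7, -0.008 to 1.76 in CDT1, -0.22 to 0.64 in CHAF1A, -0.52 to 1.24 in CHAF1B, -0.056 to 0.92 in DBF4, -0.69 to 0.33 in FEN1, -0.058 to 2.16 in GINS2, -0.56 to 0.86 in GINS3, -0.064 to 1.44 in MCM2, -0.098 to 0.28 in MCM8, -0.24 to 0.56 in ORC6, -0.45 to 1.02 in POLA2, -0.35 to 0.48 in POLE, -0.12 to 1.84 in POLE2, -0.69 to 1.15 in PRIM1, -0.59 to 0.90 in RFC3, -0.10 to 0.55 in RFC5, -0.51 to 0.029 in RPA2, -0.41 to 0.56 in RPA3, -1.03 to 0.68 in RRM2, -0.72 to 0.40 in TIMELESS, -0.56 to 0.63 in TIPIN, -1.62 to 0.57 in TK1 and -0.15 to 1.77 in TYMS. For array 1 against array 2 they ran from -0.031 to 0.075 in ORC2 and -0.30 to 0.14 in RFC5. Counts of genes without overlap were not recomputed with an array left out, since they would then compare single arrays. The cause of these differences was not tested.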

Other observations

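Of the E2F factors, pocket proteins and G1 regulators, 26 genes were measured, and 18 were above 0 with NRP-2 siRNA (median 0.22; 51.8% of all genes are above 0) and 17 with VEGF-C siRNA (median 0.10; 49.3% of all genes), with 0 past limma's threshold in either comparison. At an unadjusted p under 0.05 there were 2 higher and 2 lower with NRP-2 siRNA (6.43% and 6.85% of all genes), and 3 higher and 2 lower with VEGF-C siRNA (6.95% and 7.8% of all genes). Of the D cyclins, CCND1 and CCND3 changed by -0.28 and 0.08 with NRP-2 siRNA, and by -0.28 and -0.385 with VEGF-C siRNA. CCND2, cyclin D2, which drives entry into the cycle, was lower with both targeting siRNAs, and its NRP-2 siRNA values lay near the log2 4 filter. It had 3.53 and 4.32 for NRP-2 siRNA, 4.83 and 4.88 for VEGF-C siRNA, and 5.93 and 5.54 for scrambled siRNA, so that the 3 groups did not overlap, with changes of -1.81 for NRP-2 siRNA (SE 0.29, adjusted p = 0.213) and -0.88 for VEGF-C siRNA (SE 0.29, adjusted p = 0.288). E2F8, a repressor of the E2F family that E2F activators induce, had 9.74 and 8.80 for NRP-2 siRNA, 9.39 and 8.56 for VEGF-C siRNA, and 8.69 and 7.64 for scrambled siRNA, and stood 0.94 higher on array 1 (SE 0.11, adjusted p = 0.123). E2F1 and E2F2 had no probe set with a mean of log2 4 or more (brightest at 3.66 and 3.73).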
